A study of Homo sapiens with 26 samples.

Results

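Ribosome biogenesis factors are the proteins that transcribe, modify, cut and fold ribosomal RNA on its way to a ribosome without being part of the finished particle. The 47 genes described here were taken by symbol from a list of such factors. The list was chosen with earlier results of these data known. All 47 were found among the 58592 genes to which the sequenced transcripts were assigned. They comprise 4 genes of RNA polymerase I transcription, 3 of the box C/D and 4 of the box H/ACA ribonucleoproteins, 15 of small subunit processing, 16 of large subunit processing and 5 nucleolar chaperones and regulators. The study sequenced the messenger RNA of OCI-Ly7 and SUDHL4, established human lines of germinal centre B cell lymphoma, in which POU2F2 or POU2AF1 was repressed by CRISPR interference. The first gene encodes OCT2, an octamer-binding factor, and the second its coactivator OCA-B. All libraries, controls included, came from cells transduced with a lentivirus that drives a dead Cas9 fused to BFP and the KRAB repressor domain from an SFFV promoter. Control cells received non-targeting guides, and OCI-Ly7 was grown in IMDM with 20% serum while SUDHL4 was grown in RPMI with 10% serum. There were 4 libraries of control, 6 of POU2AF1 knockdown and 8 of POU2F2 knockdown in OCI-Ly7, and 1, 1 and 2 in SUDHL4. The labels do not say that replicates are separate cultures, so each p-value measures only the spread between these libraries.

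In the nucleolus, RNA polymerase I makes a long precursor that holds the RNAs of both ribosomal subunits. Small nucleolar ribonucleoproteins guide methylation (box C/D) and pseudouridylation (box H/ACA) of this precursor, the small subunit processome assembles on its first part, and a separate set of helicases, GTPases and scaffold proteins builds the large subunit. Growing cells need many ribosomes, and MYC, which binds the E-box sequence CACGTG, is a known activator of genes for ribosome biogenesis in B cell lymphoma.

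Promoter sequences, read from 250 bases before to 50 bases after the start in RefSeq's table for GRCh38.p14, were matched for 39 of the 47 genes. The E-box CACGTG, which reads the same on both strands, was present in 18 of the 39 (46.2%), against 8.77% of the promoters of 27305 genes. The ETS core CCGGAAGT, searched on both strands like all others, was found in 11 of the 39 (28.2%, against 4.95%). The octamer ATGCAAAT, the letters OCT2 binds best, was in 0 of the 39, against 2.19% of all promoters. For the GC box GGGCGG the shares were 71.8% and 48.3%, and for CCAAT 43.6% and 39.7%. Each motif was searched on its own, so matches of different motifs may overlap. The following windows of 30 bases hold the E-boxes that lay wholly upstream of a start in RefSeq's table. They are shown because the E-box is the sequence MYC binds and was found in 18 of these promoters. The E-box is in capitals and each window is written 5′ to 3′ on the strand of its gene.
DDX21: ggccgggtgtccCACGTGgtccccggcgac
IMP4: gcggtcctaagtCACGTGtgacattctgta
LYAR: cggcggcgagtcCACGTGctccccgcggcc
NAT10: tttaatgcgcttgcgCACGTGctgtctacc
NOP10: caggaaggaaattgacgaaCACGTGacgcg
NOP10, second copy: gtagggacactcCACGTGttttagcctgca
UTP20: gcgccgttcttttttccgtcCACGTGaccc
UTP4: tgagagcgcgcgcgCACGTGgggccggggc
The windows of DDX21 (chr10:68956604-68956633), IMP4 (chr2:130342682-130342711), NAT10 (chr11:34105599-34105628), UTP20 (chr12:101280075-101280104) and UTP4 (chr16:69132619-69132648) are on the plus strand. Those of LYAR (chr4:4290068-4290097) and NOP10 (chr15:34343137-34343166 and chr15:34343289-34343318) are on the minus strand. In the windows shown the E-box began 10 (UTP20) to 203 (IMP4) bases upstream of the RefSeq start. In 17 of the 18 genes at least 1 copy lay within 50 bases of such a start. The annotation used for the counts has other starts. By its spans the windows of DDX21, IMP4, LYAR, UTP4 and the first of NOP10 lie inside the gene. The NAT10 window begins just before the gene, and its E-box lies inside it. These letters describe the sequence, and no binding was measured here.

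The deposited files held 24959865 to 53155548 reads each, and mitochondrial genes took 7.04% to 25.8% of reads, with the highest share in OCI-Ly7 POU2AF1 knockdown replicate 1. POU2AF1 stood at 454 ± 11.7 CPM (counts scaled to the TMM-normalised library size, SD, n = 4) in OCI-Ly7 controls and 50.05 ± 27.4 (n = 6) after its knockdown, and at 442 and 79.8 in SUDHL4. POU2F2 stood at 275 ± 89.5 CPM (n = 4) in OCI-Ly7 controls and 79.8 ± 30.3 (n = 8) after its knockdown, and in SUDHL4 at 330.2 in the control against 43.5 and 55.3. B cell markers summed to 3807 to 7068 CPM over the libraries, the highest in the SUDHL4 POU2AF1 knockdown. Beside them 11 markers of T and NK cells summed to 1.31 to 4.86 CPM and 8 myeloid markers to 0.322 to 1.27 CPM. CD3E was the highest of the T and NK markers in every library, at 0.696 to 3.02 CPM. Within batch 2 the labels carry a mark s0, s1, s2 or s3, called the series here. Its meaning is not given in the sources used here. The OCI-Ly7 control libraries are replicate 1 (batch 1), 7 (s0), 8 (s2) and 9 (s3). Control replicate 1 merges 2 files without a time mark. Their sum nearly equals a control file labelled 48 h, which was left out. Of the POU2AF1 knockdown libraries, replicates 1 to 4 are of batch 1 (replicate 3 with a 48 h mark), 5 of s0 and 6 of s2. Of the POU2F2 knockdown libraries, replicate 1 is of s1, 2 and 7 of s2, 4 to 6 of s0 and 8 of s3, and replicate 3 has a 48 h mark and no series.

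Levels were compared between genes as TPM, a share of transcripts that accounts for their length. NPM1, nucleophosmin, the abundant histone and ribosome chaperone of the nucleolus, was highest at 2658 ± 656 TPM (SD, n = 18) in OCI-Ly7 and 2011 (n = 4) in SUDHL4. NCL, nucleolin, followed at 1263 ± 371 TPM in OCI-Ly7 and 744 in SUDHL4. These SDs are taken over all conditions of a line, and the values of NPM1 and NCL lay apart by more than either. Next came FBL, the methyltransferase of box C/D particles, at 357 ± 39.1 TPM, NOP56, a scaffold of the same particles, at 357 ± 89.2 TPM and NHP2, a box H/ACA protein, at 206 ± 59.8 TPM in OCI-Ly7. FBL and NOP56 had the same mean in OCI-Ly7, whereas in SUDHL4 FBL stood at 392 TPM and NOP56 at 192 TPM. The lowest levels in OCI-Ly7 belonged to UTP20, a scaffold of small subunit assembly (15.5 ± 7.84 TPM), URB2, a large subunit factor (15.8 ± 6.95), RRN3, the initiation factor that recruits polymerase I (16.9 ± 5.06), POLR1A, the largest polymerase I subunit (21.5 ± 7.17), and UTP15, of the complex that joins the precursor first (24.2 ± 11.1). The 5 lowest differed from their neighbours in this order by less than their SDs. In SUDHL4 UTP20 was lowest as well, at 6.19 TPM. For 2 members the counting may be uncertain: 49 pseudogenes of NPM1 summed to 12.2 to 23.0 CPM, and the readthrough gene PPAN-P2RY11, which shares exons with PPAN, held 0.150 to 18.5 CPM.

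In OCI-Ly7 the level of these genes followed the series of the library more than the knockdown. As the mean of log2(CPM + 1) over the 47 genes, control replicates 1, 7, 8 and 9 stood at 7.34, 7.37, 6.495 and 6.24. POU2AF1 knockdown replicates 1 to 6 stood at 6.72, 7.18, 7.27, 7.27, 7.36 and 6.54. POU2F2 knockdown replicates 1 to 8 stood at 5.93, 6.37, 7.28, 7.15, 7.26, 7.27, 6.19 and 6.09. The 3 conditions overlapped throughout, and the libraries of s0 (7.15 to 7.37, n = 5) lay above those of s2 (6.19 to 6.54, n = 4), s3 (6.09 and 6.24) and s1 (5.93, n = 1) without overlap. The batch 1 libraries (6.72 to 7.34, n = 5) overlapped s0, with POU2AF1 knockdown replicate 1, the library with the highest mitochondrial share, at their lower end. As a share of all reads the genes took 1.12% to 1.31% in s0, 0.674% to 0.813% in s2, 0.591% to 0.648% in s3 and 0.526% in s1. In bulk RNA a lower level in every cell and fewer cells at a high level cannot be told apart.

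**Figure D1:**
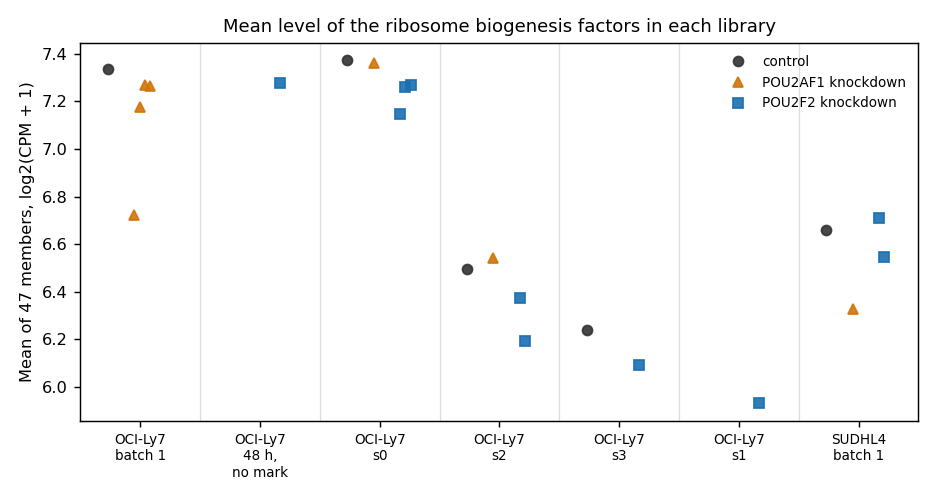
Mean of log2(CPM + 1) over the 47 ribosome biogenesis factors (vertical axis) in each of the 22 libraries, arranged by cell line, batch and series (horizontal axis), with a circle for control, a triangle for POU2AF1 knockdown and a square for POU2F2 knockdown. The s0 libraries sit between 7.15 and 7.37, and those of s2, s3 and s1 all sit at or below 6.54, whatever the condition.

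Replacing the batch term by the series, a choice made after seeing the data and called the series block, gave the size of these differences with the condition held in the model. Since s0 and s2 each hold libraries of all 3 conditions, the contrast of s2 with s0 is not set by the condition. All 47 genes were lower in s2 than in s0 (edgeR, adjusted p below 0.05), against 26.9% of the 16001 genes tested. Their median log2 difference was -0.92 (range -1.50 to -0.20), while the median over all genes was 0.01. All 47 were also lower in s3 than in s0, against 25.6% of genes, with a median of -1.18 (range -1.84 to -0.28). In 45 of the 47 the CPM of the 4 s2 libraries lay wholly below those of the 5 s0 libraries, against 24.5% of all genes, and FBL and IMP4 were the exceptions.

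**Figure D2:**
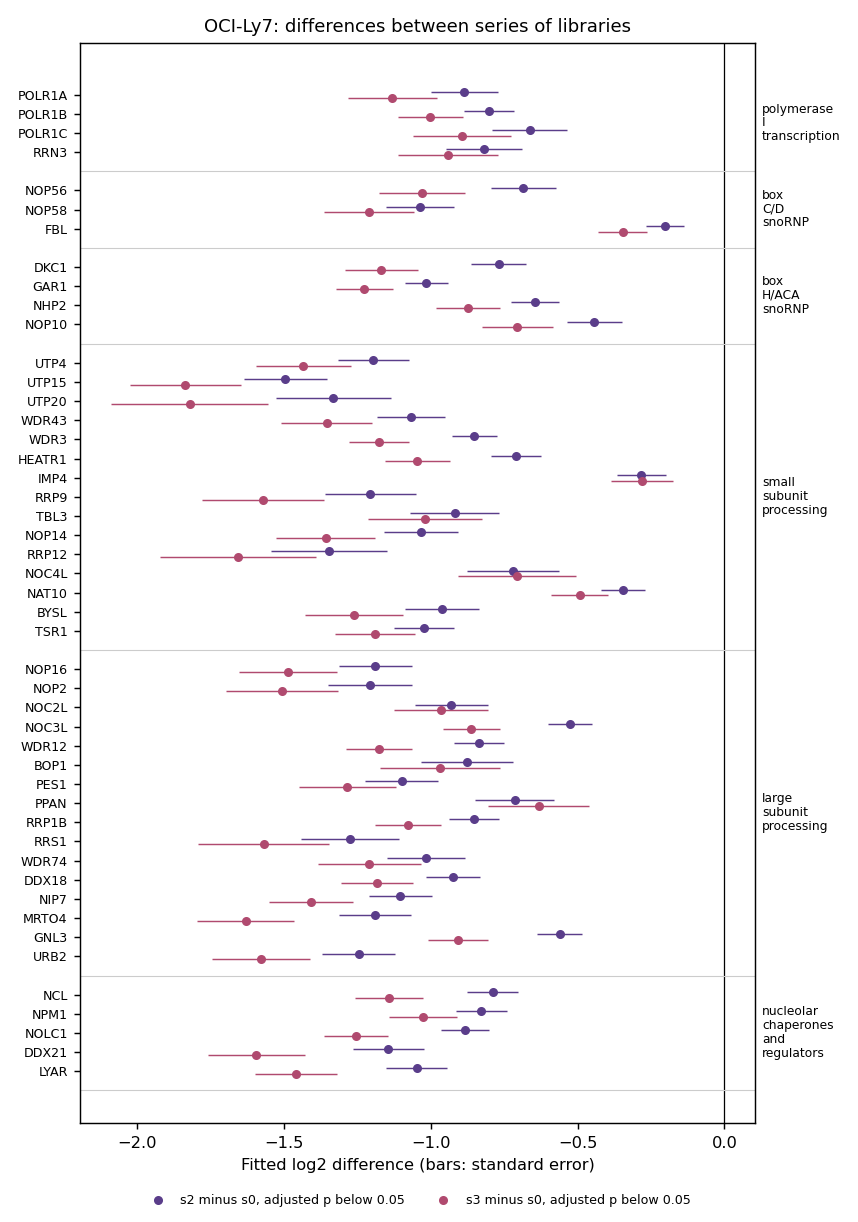
Fitted log2 difference of series s2 (purple) and series s3 (red) from series s0 in OCI-Ly7 for each of the 47 genes, with bars for the standard error, grouped by role. Every point lies left of 0, from -1.84 for UTP15 in s3 to -0.20 for FBL in s2, and IMP4 and FBL are nearest to 0.

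By role, the median difference of s2 from s0 was -0.81 for polymerase I transcription, -0.69 for box C/D, -0.71 for box H/ACA, -1.02 for small subunit processing, -0.97 for large subunit processing and -0.88 for the chaperones and regulators. UTP15 measured 46.0 to 54.1 CPM in s0, 15.7 to 19.7 in s2, 13.6 and 14.7 in s3 and 13.7 in s1. Its s2 libraries were all below 20 CPM and its s0 libraries all above 45, a log2 difference of -1.50 ± 0.14 (SE). In the same role, RRP12, an export and assembly factor of the small subunit, ran from 96.3 to 116 CPM in s0 against 35.9 to 51.6 in s2 (-1.35 ± 0.20). UTP20 ran from 131 to 166 CPM in s0 against 54.1 to 67.3 in s2 (-1.33 ± 0.20).

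Polymerase I subunits moved less than UTP15, RRP12 and UTP20. POLR1A measured 204 to 232 CPM in s0, 103 to 139 in s2 and 92.7 and 107 in s3 (s2 minus s0, -0.89 ± 0.12). POLR1B, the second catalytic subunit, measured 91.1 to 112 CPM in s0 and 49.7 to 68.1 in s2 (-0.80 ± 0.08). Neither gene overlapped between s0 and s2. POLR1C, a subunit shared with polymerase III, differed by -0.66 ± 0.13 and RRN3 by -0.82 ± 0.13.

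Among the large subunit factors, RRS1, which takes part in loading 5S RNA, measured 37.5 to 46.4 CPM in s0 and 13.1 to 24.1 in s2 (-1.28 ± 0.17). URB2 (-1.25 ± 0.12), NOP2, an RNA methyltransferase (-1.21 ± 0.14), and NOP16 and MRTO4 (-1.19 ± 0.12 each) followed. The 3 subunits of the PeBoW complex, PES1, BOP1 and WDR12, differed by -1.10 ± 0.13, -0.88 ± 0.16 and -0.84 ± 0.08. The smallest differences of this role were those of NOC3L (-0.53 ± 0.07) and GNL3, nucleostemin (-0.56 ± 0.08).

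The most abundant members moved with the others. NPM1 measured 1834 to 2286 CPM in s0, 1042 to 1226 in s2 and 982 and 984 in s3, and NCL 1996 to 2453, 1181 to 1461 and 956 and 1077. DDX21, a helicase that links polymerase I and II transcription, measured 595 to 700.5 CPM in s0 and 261 to 319.6 in s2 (-1.15 ± 0.12). None of these ranges overlapped. GAR1, the box H/ACA protein, had the smallest adjusted p of the contrast (27.7 to 35.0 CPM in s0, 13.3 to 17.5 in s2, -1.02 ± 0.07, edgeR adjusted p = 3.3e-07).

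FBL was the member that differed least (-0.20 ± 0.06, adjusted p = 0.016): it measured 228 to 299 CPM in s0 and 223 to 252 in s2, and these ranges overlapped. IMP4, a protein that holds U3 RNA to the precursor, measured 172 to 250.5 CPM in s0 and 137 to 207 in s2, which also overlapped (-0.28 ± 0.08, adjusted p = 0.0098). NAT10, an RNA acetyltransferase (-0.35 ± 0.07), and NOP10, of the box H/ACA core (-0.44 ± 0.09), came next. FBL and NOP56, partners in the box C/D particle, thus differed by -0.20 and -0.69.

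Genes of the same pathway that are not among the 47 were counted from lists chosen with earlier results known. Over all 16001 genes tested 26.9% were lower in s2 than in s0 and 25.2% higher. In s2 against s0, 38 of 39 other small subunit genes were lower and 0 higher (median log2 -0.77), and 36 of 39 other large subunit genes were lower and 1 higher (-0.76). Of 21 exosome and RNase MRP genes 17 were lower and 0 higher (-0.66). Of 11 other polymerase I genes only 5 were lower and 1 was higher (-0.07). Beside these, the 79 ribosomal protein genes had a mean log2(CPM + 1) of 9.43 to 9.55 in s0 and 9.59 to 9.83 in s2. MYC measured 247 to 402 CPM in s0 and 236 to 405 in s2, with a log2 difference of 0.00 ± 0.09 (adjusted p = 0.98). MKI67, a proliferation marker, measured 969 to 1157 CPM in s0 and 1163 to 1312 in s2. Its log2 difference was 0.18 ± 0.09 and did not pass (edgeR adjusted p = 0.13). Of 16 proliferation genes 10 were lower and 1 higher. The mitochondrial share was 8.56% to 9.54% in s0, 9.57% to 10.3% in s2 and 13.2% to 13.4% in s3. The part of these measures in the result was not tested. Members with an E-box in their promoter had a median s2 difference of -1.04 (n = 18) and those without it -0.83 (n = 21), and the ranges overlapped (-1.33 to -0.20 and -1.50 to -0.65).

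The contrast of s0 with batch 1 was mixed. Of the 47 genes 18 were higher in s0, against 18.7% of all genes, and 6 were lower, against 18%. NOP10 (0.79 ± 0.10), NOP56 (0.65 ± 0.12), TSR1, a late factor of the small subunit (0.55 ± 0.11), and WDR3 (0.55 ± 0.08) were highest. The 6 lower genes were RRS1 (-0.80 ± 0.18), TBL3 (-0.67 ± 0.17), NOC4L (-0.60 ± 0.18), PPAN (-0.57 ± 0.15), BOP1 (-0.55 ± 0.18) and GAR1 (-0.40 ± 0.08). Control libraries differed in the same way: RRS1 measured 98.4, 46.4, 24.1 and 16.3 CPM and BOP1 182, 88.2, 67.7 and 56.0 CPM in control replicates 1, 7, 8 and 9. Over the 4 OCI-Ly7 controls the SD of log2 CPM was largest for RRS1 (1.11), UTP20 and UTP15 (0.98 each), RRP12 and GAR1 (0.81 each), and smallest for IMP4 (0.20), NAT10 (0.21) and FBL (0.23).

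After POU2AF1 knockdown in OCI-Ly7 no member passed the main test. In simulated data where every gene had the same relative spread, this test recovered 6% of genes changed 2-fold. In the fit with batch as a term, 0 of the 47 passed the test, against 0.887% of 16001 genes, and 1 had an unadjusted p below 0.05. Their median log2 value was 0.06, with 10 of 47 negative, beside a median of -0.00 over all genes. It changed sign with single libraries, from -0.239 without POU2AF1 knockdown replicate 5 to 0.285 without control replicate 7. The highest values were those of WDR3 (0.23 ± 0.31) and NOLC1, a chaperone of small nucleolar particles (0.23 ± 0.32), then POLR1B (0.22). FBL had 0.16 ± 0.12. The lowest were IMP4 (-0.51 ± 0.13), DDX18, a helicase of the large subunit (-0.37 ± 0.34), and BOP1 (-0.11).

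Each POU2AF1 knockdown library was set beside the control of its series or, in batch 1, beside control replicate 1, which replicates 1 to 4 share. In this way 5 genes were lower in 6 of 6 libraries, namely IMP4, DDX18, NOP10, TBL3 and RRS1, against 13% of all genes. These 5 are a smaller share of the 47 than that. In the other direction 0 were higher in 6 of 6, against 9.25%. The libraries differed among themselves: the number of genes below the control was 46 in replicate 1, 41 in replicate 2, 31 in each of replicates 3 and 4, 23 in replicate 5 and 13 in replicate 6. With the series block, 2 of the 47 fell, IMP4 and DDX18, against 3.09% of all genes that were lower, and 0 rose, against 2.49% higher. The median was then -0.06, with 35 of 47 negative. Batch 1 has a single control, replicate 1, and without it the series block called 0 of the 47, against 1.02% of genes, with IMP4 at -0.51 ± 0.12 (adjusted p = 0.063) and DDX18 at -0.31 ± 0.12 (adjusted p = 0.39).

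IMP4 (ENSG00000136718, chromosome 2, 130342225 to 130347810, plus strand) measured 248, 250.5, 207 and 189 CPM in control replicates 1, 7, 8 and 9 (224 ± 30.6, SD, n = 4). In POU2AF1 knockdown replicates 1 to 6 it measured 139, 164, 175, 185, 172 and 137 CPM (162 ± 19.6, n = 6). In POU2F2 knockdown replicates 1 to 8 it measured 206, 176, 221, 183, 200.1, 199.7, 145 and 172 CPM (188 ± 23.7, n = 8). The POU2AF1 knockdown libraries all lay below the lowest control, 189 CPM, and the POU2F2 knockdown libraries overlapped the controls. IMP4 was the only one of the 47 genes whose POU2AF1 knockdown libraries lay below the controls in each batch taken separately, which held for 3.86% of all genes. Its log2 value was -0.51 ± 0.13 with the batch term (edgeR adjusted p = 0.098) and -0.54 ± 0.09 with the series block (adjusted p = 0.0013). It also missed the threshold with no filter, no batch term, no mitochondrially encoded genes or all libraries in one fit. The same held when any single library was left out of the batch fit. It passed with the series block, DESeq2 (adjusted p = 0.025), upper quartile scaling (0.031), the replicate block (0.042) or POU2F2 knockdown replicate 3 placed in batch 1 (0.035). It also passed in edgeR with each file as its own library (adjusted p = 0.0052), which counts 1 library more than once.

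DDX18 (ENSG00000088205, chromosome 2, 117814650 to 117832379, plus strand) measured 383, 481, 206 and 196 CPM in control replicates 1, 7, 8 and 9. In POU2AF1 knockdown replicates 1 to 6 it measured 200.3, 239, 262, 251, 343 and 185 CPM. The groups overlapped, and each knockdown library lay below the control of its series or, in batch 1, below control replicate 1. In POU2F2 knockdown replicates 1 to 8 it measured 122, 206, 367, 348, 337, 361, 188 and 162 CPM. With the series block DDX18 stood at -0.47 ± 0.10 after POU2AF1 knockdown (adjusted p = 0.0065).

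IMP4 has a neighbour that is no ribosome biogenesis factor and was examined after the values of IMP4 were seen. PTPN18, a tyrosine phosphatase gene, starts 8197 bases after the end of IMP4 on the same strand. It measured 262, 402, 347 and 365 CPM in the controls, 118, 115, 109.7, 117, 189.5 and 195 in POU2AF1 knockdown replicates 1 to 6, and 362, 277, 225, 243, 262, 265, 280.0 and 279.9 in POU2F2 knockdown replicates 1 to 8. Its POU2AF1 knockdown libraries all lay below its controls, and PTPN18 fell by 1.04 ± 0.12 on the log2 scale in OCI-Ly7 (adjusted p = 0.00017). In SUDHL4 PTPN18 measured 171 CPM in the control, 93.9 after POU2AF1 knockdown and 125 and 122.6 after POU2F2 knockdown. CCDC115, which overlaps the 5′ end of IMP4 by 125 bases on the other strand, stood at -0.29 in OCI-Ly7 and -0.07 in SUDHL4 after POU2AF1 knockdown and passed the test in neither.

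**Figure D3:**
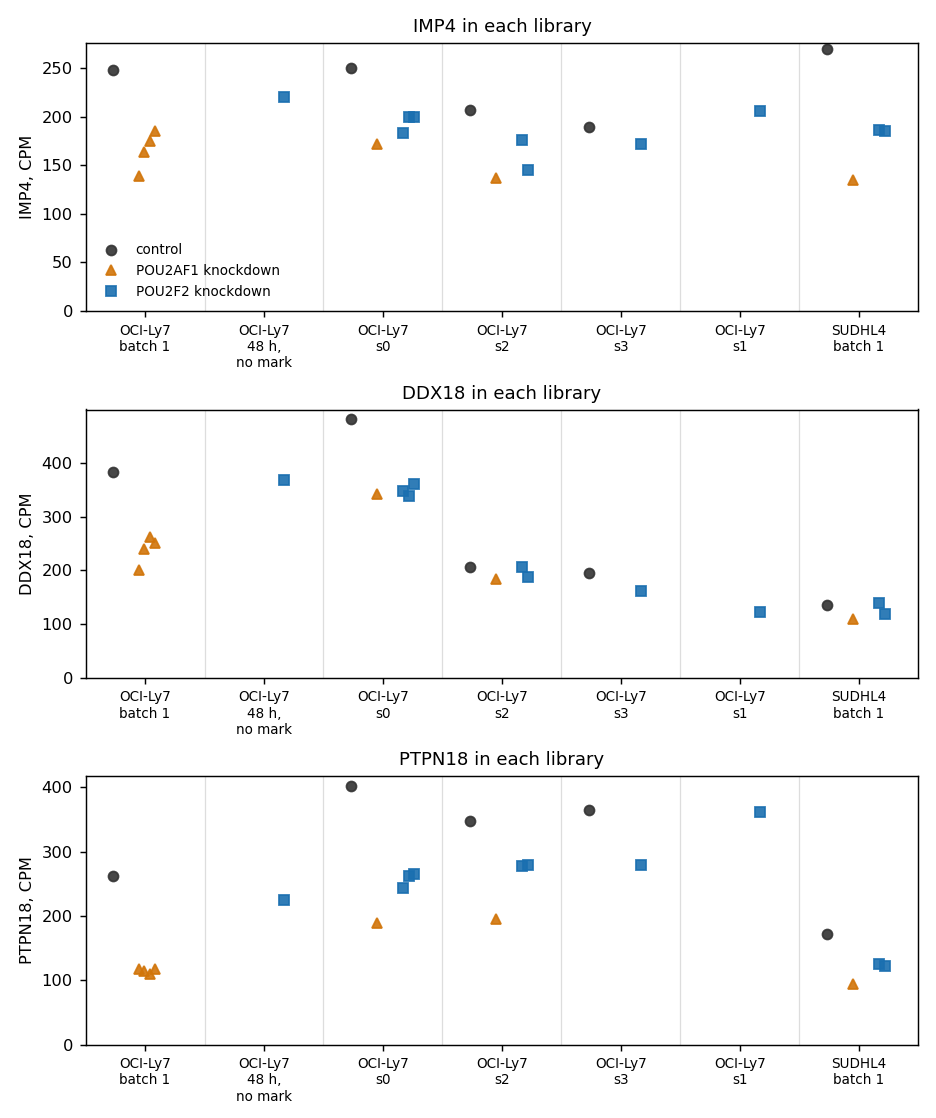
CPM of IMP4, DDX18 and the neighbouring gene PTPN18 (vertical axes from 0) in each of the 22 libraries, arranged by cell line, batch and series, with circles for control, triangles for POU2AF1 knockdown and squares for POU2F2 knockdown. In each series the POU2AF1 triangles of IMP4 and PTPN18 lie below the control circle, whereas the DDX18 control alone ranges from 481 CPM in s0 to 196 in s3.

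Knockdown of POU2F2 in OCI-Ly7 gave 0 called genes in the batch fit, among the 47 and over all 16001 genes (0%). Over all genes 283 had an unadjusted p below 0.05, and DESeq2 called 5 (0.0312%) and 0 of the 47. The median of the 47 was -0.06, with 36 negative, and 0.229 without control replicate 7. The lowest values were DDX18 (-0.26 ± 0.32), NAT10 (-0.21 ± 0.19) and IMP4 (-0.21 ± 0.12), the highest RRS1 and NOC4L (0.15 each) and TBL3 (0.13). FBL (-0.09 ± 0.11) and GNL3 (-0.11 ± 0.22) were also among the 5 smallest p-values.

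Within series the values leaned one way without passing the test. The series block gave 47 of 47 values below 0, from -0.38 to -0.06 with a median of -0.21, of which 17 had an unadjusted p below 0.05 and 0 passed, against 0.0812% of all genes called. Compared with the control of the same series, 27 of the 47 genes were lower in 6 of 6 POU2F2 knockdown libraries, against 8.45% of all genes, and 0 were higher in 6 of 6, against 7.07%. These 6 libraries share 3 controls, and the 47 genes move together between libraries, so the count is not 27 separate results. The number of genes below the control was 46, 40 and 40 in replicates 4 to 6, 35 in replicate 2, 45 in replicate 7 and 44 in replicate 8. Without POU2AF1 knockdown replicate 1 in the series block, 3 genes were lower, IMP4 (-0.30, adjusted p = 0.034), DDX18 (-0.32, adjusted p = 0.038) and NOP14, of the small subunit processome (-0.25, adjusted p = 0.049), against 0.332% of all genes.

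Set directly against each other in OCI-Ly7, POU2F2 and POU2AF1 knockdown differed in 0 of the 47, against 0.162% of all genes. The median of POU2F2 minus POU2AF1 knockdown was -0.13, with 39 negative, and 0.232 without POU2AF1 knockdown replicate 5. IMP4 was higher in value after POU2F2 knockdown (0.30 ± 0.14, unadjusted p = 0.041), as were NOC4L (0.26) and TBL3 (0.22), and WDR3 (-0.35 ± 0.30), FBL (-0.26 ± 0.12), POLR1B and NOLC1 (-0.26 each) and NAT10 (-0.18 ± 0.20) were lower in value. None passed the test. The series block with all OCI-Ly7 libraries called 0 of the 47, against 1.26% of all genes. Only without POU2AF1 knockdown replicate 1 did it give 12 lower genes, against 1.7% of all genes. Among them were POLR1B (-0.29), WDR3, NCL and DDX21.

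In SUDHL4 the single POU2AF1 knockdown library was lower than the single control in 25 of the 47 genes (edgeR, SUDHL4 fitted alone), against 18.8% of 16973 genes, and higher in 0, against 18%. The median log2 value was -0.30, with 43 of 47 negative, beside 0.01 over all genes. The spread in this fit comes from the 2 POU2F2 knockdown libraries alone, with 1 residual degree of freedom, and in a fit of all libraries of both lines 0 of the 47 passed, against 1.66% of genes. DESeq2 called 17 of the 47, against 20% of genes. The values for the POU2AF1 knockdown are therefore differences between single libraries whose error is borrowed.

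**Figure D4:**
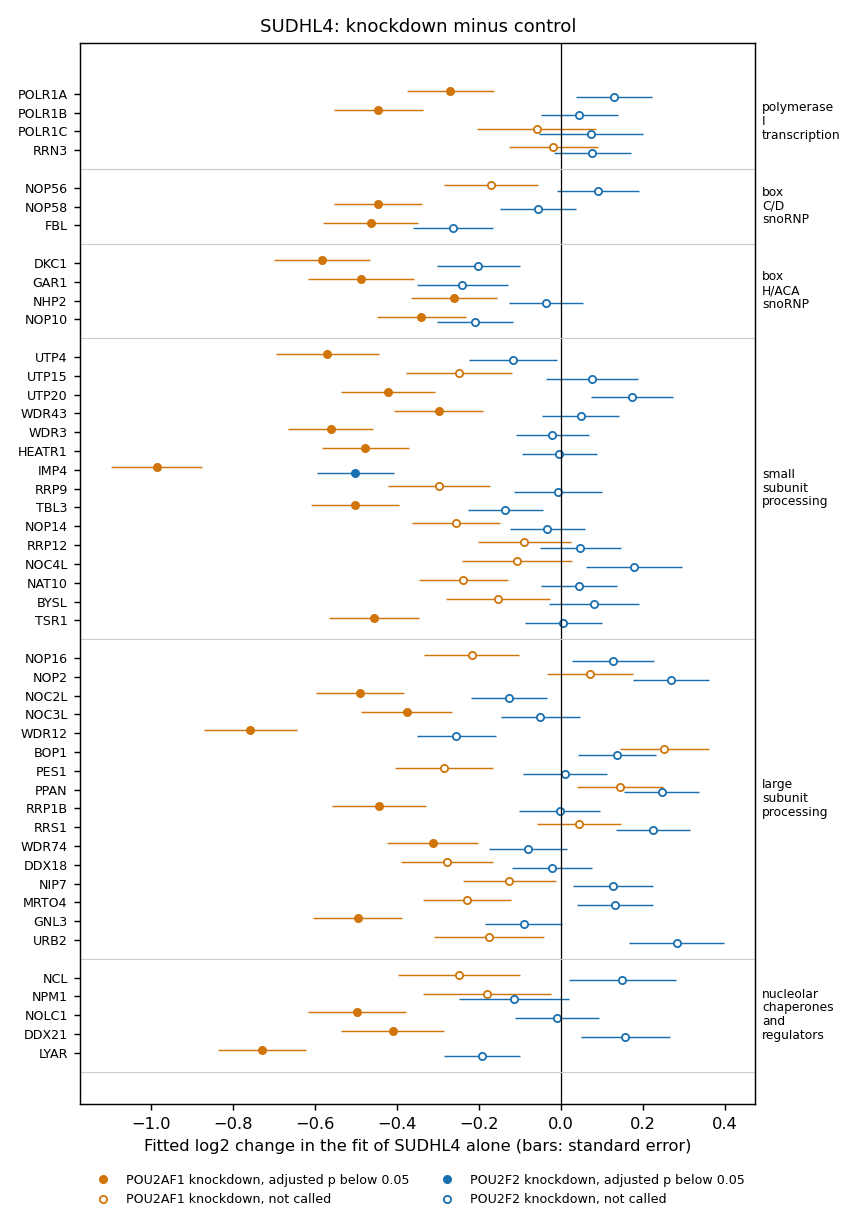
Fitted log2 change after POU2AF1 knockdown (orange) and POU2F2 knockdown (blue) against control in SUDHL4 for each of the 47 genes, grouped by role, with bars for the standard error and filled points for an adjusted p below 0.05. The orange points lie left of 0 for 43 genes and are filled for 25, while the only filled blue point is IMP4 at -0.50.

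Small subunit processing held 8 of its 15 genes among those that fell in the fit of SUDHL4 alone. In that fit 18.8% of all genes were lower. IMP4 measured 269.5 CPM in the control, 134 after POU2AF1 knockdown and 187 and 185 after POU2F2 knockdown. Both knockdowns lay below the control, by -0.99 ± 0.11 (adjusted p = 9.7e-09) for POU2AF1 and -0.50 ± 0.09 (adjusted p = 0.00037) for POU2F2, and in the fit of all libraries the POU2AF1 value was -1.004 with an adjusted p of 0.064. WDR3, of the complex that joins the precursor with U3 RNA, measured 97.5 CPM in the control, 65.2 after POU2AF1 knockdown and 95.6 and 92.3 after POU2F2 knockdown (POU2AF1, -0.56 ± 0.10). TBL3, of the same complex, measured 77.0, 53.7, 72.3 and 64.7 CPM in this order (-0.50 ± 0.11). For both genes the POU2AF1 knockdown was the lowest of the 4 libraries.

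UTP4, HEATR1 and WDR43 belong to the first complex to bind the precursor, and UTP15 does too. UTP4 measured 104 CPM in the control and 69.0 after POU2AF1 knockdown (-0.57 ± 0.13), HEATR1 73.0 and 51.8 (-0.48 ± 0.11) and WDR43 116 and 93.3 (-0.30 ± 0.11). UTP15, at 25.9 and 21.5 CPM, did not pass the test (-0.25 ± 0.13). The other 2 genes of the role that fell were TSR1, from 114 to 82.3 CPM (-0.46 ± 0.11), and UTP20, from 49.3 to 36.4 CPM (-0.42 ± 0.11).

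All 4 box H/ACA genes fell after POU2AF1 knockdown in the same fit, against 18.8% of all genes that were lower. DKC1, the pseudouridine synthase dyskerin, measured 177 CPM in the control, 117 after POU2AF1 knockdown and 164 and 137 after POU2F2 knockdown (-0.58 ± 0.12). Its partners GAR1 (30.2 to 21.3 CPM, -0.49 ± 0.13), NOP10 (57.6 to 44.9 CPM, -0.34 ± 0.11) and NHP2 (127 to 104 CPM, -0.26 ± 0.11, adjusted p = 0.049) changed by less. Of the box C/D genes FBL fell from 318 to 227 CPM (-0.46 ± 0.12) and NOP58 from 148 to 108 CPM (-0.45 ± 0.11), and NOP56, at 213 and 187 CPM, did not pass. Of the polymerase I genes POLR1B fell from 91.1 to 66.0 CPM (-0.45 ± 0.11) and POLR1A from 119 to 97.5 CPM (-0.27 ± 0.11), while RRN3 (57.4 and 56.0 CPM) and POLR1C (24.0 and 22.7 CPM) did not pass.

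Large subunit processing held 6 of its 16 genes among those that fell in the same fit, against 18.8% of all genes that were lower. WDR12 measured 69.3 CPM in the control, 40.5 after POU2AF1 knockdown and 61.1 and 52.4 after POU2F2 knockdown (POU2AF1, -0.76 ± 0.11, adjusted p = 2.6e-06). Its partners in the PeBoW complex did not pass: BOP1 measured 120.0 and 141 CPM in control and POU2AF1 knockdown (0.25 ± 0.11, adjusted p = 0.068) and PES1 121 and 98.3 (-0.28 ± 0.12, adjusted p = 0.068). BOP1 had the highest value of the 47, followed by PPAN (90.9 and 99.2 CPM, 0.14 ± 0.10) and NOP2 (122.7 and 127 CPM, 0.07 ± 0.11).

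The other large subunit genes that fell were GNL3 (140.1 to 98.1 CPM, -0.50 ± 0.11), NOC2L (152 to 107 CPM, -0.49 ± 0.11), RRP1B (215 to 156 CPM, -0.44 ± 0.11), NOC3L (48.4 to 36.8 CPM, -0.38 ± 0.11) and WDR74 (51.7 to 41.1 CPM, -0.31 ± 0.11). DDX18, at 135 and 109.6 CPM, did not pass (adjusted p = 0.052). Of the chaperones and regulators, LYAR, a nucleolar zinc finger protein, measured 95.0 CPM in the control, 56.6 after POU2AF1 knockdown and 86.7 and 75.8 after POU2F2 knockdown (-0.73 ± 0.11, adjusted p = 1.9e-06). NOLC1 fell from 294 to 205 CPM (-0.50 ± 0.12) and DDX21 from 350.0 to 260.0 CPM (-0.41 ± 0.12). The most abundant pair, NPM1 (1461 and 1273 CPM) and NCL (1123 and 933 CPM), did not pass.

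Other gene groups moved in the same library, in a fit where 18.8% of all genes were lower and 18% higher. All 16 proliferation genes fell after POU2AF1 knockdown in SUDHL4 (median log2 -0.87), MKI67 measured 964 CPM in the control and 449 in the knockdown, and MYC fell from 531 to 241 CPM (-1.12 ± 0.12, adjusted p = 5.7e-09; 0.054 in the fit of all libraries). Of 12 B cell markers 9 rose and 3 fell, and the mitochondrial share was 9.76% in the control and 12.8% in the knockdown. Of 20 exosome and RNase MRP genes 10 fell and 0 rose, of 39 other small subunit genes 10 fell and 0 rose, of 39 other large subunit genes 18 fell and 1 rose, and of 11 other polymerase I genes 3 fell and 0 rose. The part of these measures in the values of the 47 genes was not tested.

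After POU2F2 knockdown in SUDHL4 1 of the 47 fell, IMP4, against 2.56% of genes that were lower, and 0 rose, against 4.79%. The median was 0.01, with 23 negative. FBL (-0.26 ± 0.10) and WDR12 (-0.26 ± 0.10) were next lowest, and URB2 (0.28), NOP2 (0.27 ± 0.09) and PPAN (0.24 ± 0.09) had the highest values without passing. In the fit of all libraries 0 of the 47 passed, against 0.0951% of genes. MYC stood at -0.47 in this comparison (adjusted p = 0.0023) and at -0.51 in the fit of all libraries, where it did not pass (adjusted p = 1).

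Between the lines, 1 of the 47 genes differed between the SUDHL4 control and the OCI-Ly7 controls, FBL (0.77 ± 0.20, edgeR adjusted p = 0.0088), against 23.5% of 18918 genes called. FBL measured 318 CPM in the SUDHL4 control and 193, 280.2, 229 and 209 CPM in OCI-Ly7 control replicates 1, 7, 8 and 9, all of which lay below it. The median of the 47 was -0.50, with 41 negative, beside -0.07 over all genes. The lowest values, none of which passed, were UTP20 (-1.40), HEATR1 (-1.37 ± 0.54), NOC4L (-1.28 ± 0.61) and DDX18 (-1.27 ± 0.63), then GNL3 (-0.78 ± 0.42), and next to FBL the highest were WDR3 (0.54) and RRN3 (0.41). With the series block 2 were higher, against 21.8% of all genes, and 27 lower, against 22.7%.

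The response to POU2AF1 knockdown was compared between the lines as a difference of differences. Of the 47 genes 0 passed, against 0.798% of genes, and the median of SUDHL4 minus OCI-Ly7 was -0.37, with 42 negative. FBL had the smallest p (-0.64 ± 0.27, unadjusted p = 0.031), LYAR (-0.87), WDR12 (-0.84 ± 0.68) and WDR3 (-0.81 ± 0.68) the lowest values, DKC1 (-0.76 ± 0.64) and IMP4 (-0.48 ± 0.30) were among the 5 smallest p-values, and BOP1 (0.35), PPAN (0.18) and DDX18 (0.08) had the highest values. MYC differed (-1.65, adjusted p = 0.017), and its own value in OCI-Ly7 was 0.52 (adjusted p = 0.15), or 0.56 with the series block, where it passed (adjusted p = 0.0027). For POU2F2 knockdown the difference between the lines passed in 0 of the 47, against 0.0106% of genes, with a median of 0.02. IMP4 (-0.32 ± 0.26), GAR1 (-0.31 ± 0.74) and TBL3 (-0.30) were lowest there, and NOP2 (0.33), URB2 (0.28) and NCL (0.23) highest. FBL (-0.20), NAT10 (0.22) and NOP10 (-0.16) completed the smallest p-values, none of which passed.

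The transcripts that made up a gene's level also differed between batches. Transcripts not annotated as protein coding, such as those with a retained intron, held a median of 11.4% of the TPM of a member, and over 50% in 4 members: WDR12 (88.0%), TBL3 (67.1%), IMP4 (59.7%) and NOP56 (58.8%), followed by GAR1 (49.1%). For IMP4 the share was 41.4% to 47.6% in the 5 OCI-Ly7 libraries of batch 1 and 68.9% to 78.9% in the 12 of batch 2 with a series mark, without overlap. GAR1 behaved likewise, at 35.2% to 40.6% and 44.0% to 71.5%, and so did DDX18, at 21.5% to 30.2% and 37.1% to 43.3%.

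Shares that did not overlap between these batches were found in 12 of the 47 genes, 10 lower in batch 1, against 5.5% of 11655 protein-coding genes, and 2 higher, against 2.13%, and no test was made of it. POU2F2 knockdown replicate 3, labelled batch 2 but without a series mark, was nearer to batch 1 in 32 of all 47 genes, among them these 12 (IMP4, 47.8%). WDR12 showed no such split, at 87.8% to 89.8% and 85.9% to 89.8%. In the SUDHL4 libraries, all of batch 1, the share of IMP4 was 37.8% to 43.2%. Shares of transcripts of 1 gene are estimates from reads that the transcripts have in common.

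**Figure D5:**
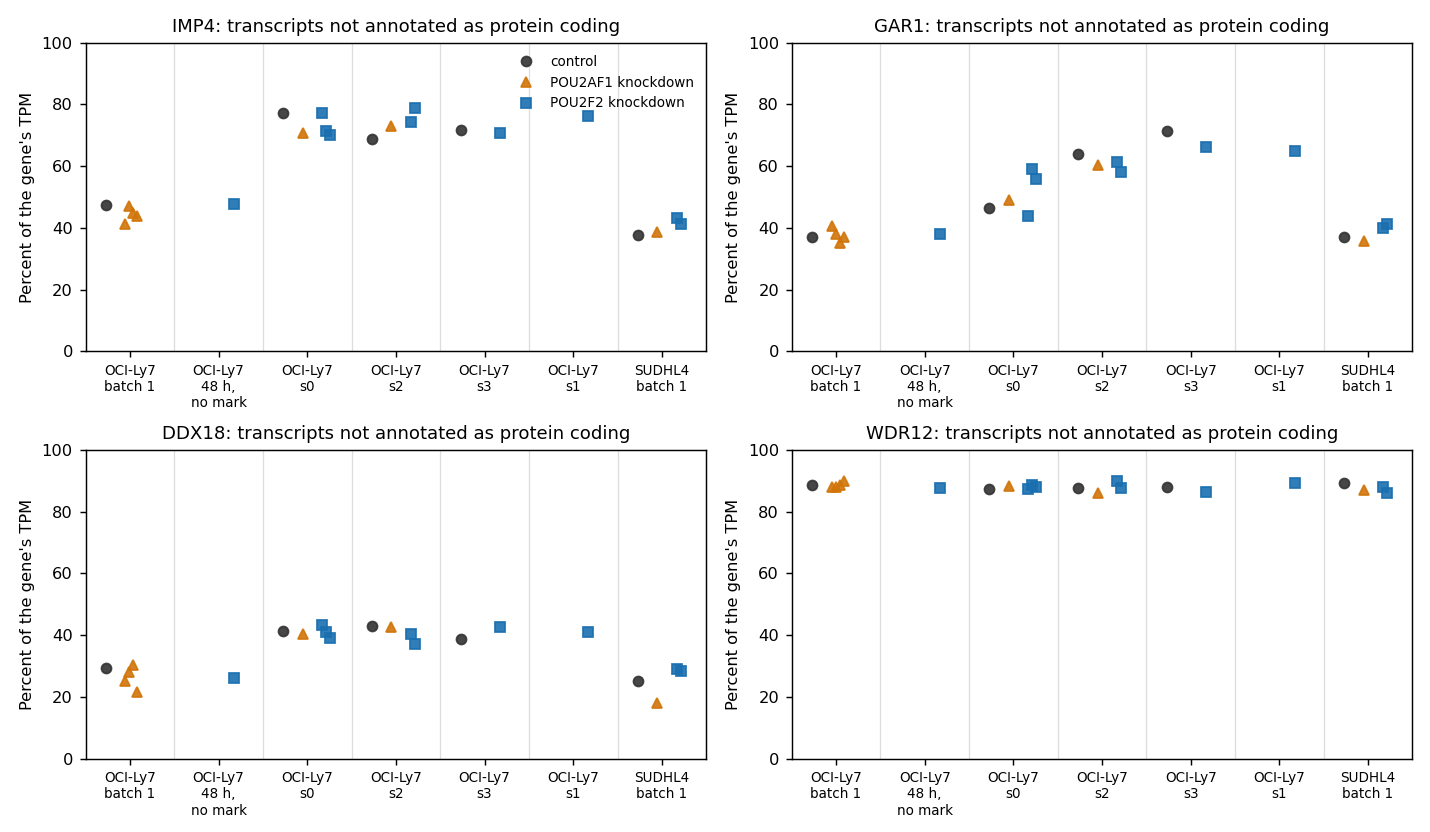
Percent of the summed TPM of IMP4, GAR1, DDX18 and WDR12 that came from transcripts not annotated as protein coding (vertical axes, 0 to 100) in each of the 22 libraries, arranged by cell line, batch and series, with circles for control, triangles for POU2AF1 knockdown and squares for POU2F2 knockdown. IMP4 lies at 41.4% to 47.6% in OCI-Ly7 batch 1 and at 68.9% to 78.9% in the marked series of batch 2, and WDR12 stays between 85.9% and 89.8%.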

How the data were processed

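Messenger RNA was prepared with Trizol and a stranded TruSeq kit and read in pairs, per the labels' protocols. Per the submitters' processing notes, the authors used fastp for trimming and Salmon 1.5.1 for quantification on GRCh38.p13. Each deposited file gives, for 227912 transcripts, an estimated count of reads and an abundance in TPM. The release of the annotation is not given in the sources used here. Of the transcripts, 205964 transcripts matched GENCODE release 29 by identifier, holding 98.4% to 98.9% of reads. Counts of a gene's transcripts were added and rounded, and the deposited TPM values were summed per gene for levels between genes.

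Of the 26 files, 3 pairs differed by about the sampling noise (ratio of their difference to it 1.117 to 1.135, against at least 2.63 in 53 other pairs) and were merged below a ratio of 1.5, and control file 3, labelled 48 h, was left out because it lay within 2 reads of the sum of control files 1 and 2 for 92.92% of 26871 genes, which gave 22 libraries. This threshold was chosen with the ratios in view.

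edgeR 4.0.16 (TMM, robust quasi-likelihood test, genes kept by filterByExpr at a minimum count of 10) was fitted to OCI-Ly7 with batch as a term, to SUDHL4 alone, and to all libraries for comparisons between lines, with Benjamini-Hochberg adjustment over all genes and a threshold of 0.05. Replicates were not paired in the main fits. Alternatives were DESeq2 1.42.0, upper quartile scaling, no filter, unmerged files, a series block, a replicate block and leaving out libraries. On simulated data changed 2-fold the test recovered 6% of genes for OCI-Ly7 POU2AF1 knockdown (16001 genes) and 66% for SUDHL4 (16973 genes). At 1.5-fold it recovered 0% and 23%. Every simulated gene of a line had the same relative spread and no batch or series difference, unlike the data. These shares therefore do not hold for each gene, and PTPN18 passed in OCI-Ly7 at -1.04 ± 0.12 (SE). A single library in a group is assumed to vary like the others in its fit.

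The members, the other lists and the named genes (called members, the 5 smallest p-values and the 3 highest and lowest values of each comparison, the extremes of level, spread and transcript share) were chosen with earlier results of these data known. The comparisons between series were added after seeing the data.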

Additional observations from a re-analysis of the deposited data

Results flagged for a closer look

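In groups of 4 to 10 libraries, a library far from all others was sought for each of the 47 genes in 3 OCI-Ly7 groups. Chance alone flags about 1 group in 20. The flags listed here are no more than that rate would give over all these genes and groups. After POU2AF1 knockdown, GAR1 was lowest in replicate 6 at 16.1 CPM, against 35.0 to 44.6 in the others (gap over range 0.665). WDR3 was highest in replicate 5 at 118 CPM, against 65.7 to 80.9 (0.709), and WDR12 was highest in the same library at 118 CPM, against 68.7 to 82.9 (0.711). Replicates 5 and 6 are the only POU2AF1 knockdown libraries of s0 and s2. After POU2F2 knockdown, GAR1 (47.9 CPM, against 12.9 to 28.9, 0.542) and RRS1 (92.0 CPM, against 12.5 to 43.7, 0.607) were highest in replicate 3, the library without a series mark. In batch 1 GAR1 measured 38.8 to 49.8 CPM and RRS1 48.5 to 98.4 CPM.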

How the results depend on the processing

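Each share in brackets is that of all genes called under the same setting. For OCI-Ly7 POU2AF1 knockdown, 0 of the 47 genes were called in the main fit (0.887%), 1 with DESeq2 (2.04%), with upper quartile scaling (0.744%), with every file as its own library (3.68%) or with POU2F2 knockdown replicate 3 placed in batch 1 (1.66%), and 2 with the series block (5.59%). The 1 was IMP4 in each. For SUDHL4 POU2AF1 knockdown the 25 (36.8%) became 38 with every file as its own library (59.2%) and 0 with all libraries in one fit (1.66%). For SUDHL4 POU2F2 knockdown the 1 (7.35%) became 2 with upper quartile scaling (7.67%), 10 with unmerged files (25.0%) and 0 with all libraries (0.0951%). Between the control lines the 1 (23.5%) became 2 with DESeq2 (26.2%) or upper quartile scaling (23.3%), 9 with unmerged files (45.7%), 0 with no batch term (26.5%), 29 with the series block (44.5%) and 3 with replicate 3 in batch 1 (28.0%). For the difference in POU2AF1 response the 0 (0.798%) became 1 with unmerged files (10.2%) and 3 with the series block (10.3%). Unmerged files count 1 library more than once. The cause of the other changes was not tested.

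Replicate numbers were used as a block although only 5 of 10 same-numbered pairs had a correlation over 0.1 (-0.489 to 0.664), so the samples share only a number. The replicate block gave 7 called genes (4.64%) and a median of -0.914 for OCI-Ly7 POU2AF1 knockdown, a median of -0.706 for POU2F2 knockdown, 8 called genes between the control lines (24.4%) and a median of 0.494 for the difference in POU2AF1 response. In SUDHL4 no paired analysis was possible because the groups share fewer than 2 numbers after merging.

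Leaving out single libraries, with and without the series block, gave 0 to 2 called genes (0.0490% to 10.6% of all genes) and medians of -0.239 to 0.285 for OCI-Ly7 POU2AF1 knockdown, 0 to 3 (0% to 0.846%) and -0.263 to 0.229 for POU2F2 knockdown, and 0 to 12 (0.0184% to 4.17%) and -0.313 to 0.232 for POU2F2 against POU2AF1 knockdown. With all libraries fitted, or SUDHL4 alone where that was possible, it gave 0 (1.31%) and -0.315 to -0.314 for SUDHL4 POU2AF1 knockdown, 0 to 1 (0.0267% to 8.54%) and -0.119 to 0.0581 for SUDHL4 POU2F2 knockdown and 1 to 2 (16.1% to 25.8%) and -0.752 to -0.257 between the control lines, with 2 without OCI-Ly7 POU2AF1 knockdown replicate 5 or POU2F2 knockdown replicate 1. The difference in response kept 0 called genes, with medians of -0.591 to -0.108 for POU2AF1 and -0.251 to 0.232 for POU2F2. SUDHL4 alone could not be fitted without its control or a POU2F2 knockdown library, and no comparison with its control could be made without it.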

Other observations

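Among 18871 tested genes outside the list, those whose log2 CPM followed the mean of the 47 most closely over the 22 libraries were PUM3 (Pearson r = 0.993), ETF1, the translation termination factor (0.992), EIF4G1, the scaffold of the cap-binding complex (0.989), IPO4, a nuclear import receptor (0.989), and MPHOSPH10, a partner of IMP4 in the U3 particle (0.987). The median r over these genes was -0.064. Within OCI-Ly7 35 of the 47 members and 5.33% of other genes had an r over 0.9. Each member is itself part of the mean and the other genes are not, so this difference is partly built in. The members least like the mean were FBL (0.07), NOP10 (0.30) and IMP4 (0.34). These correlations share the libraries, the series and the scaling, and are given as a description. They come from the same values as the differences between series and are not a separate result.

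A further gene of the IMP4 neighbourhood, the pseudogene FAR2P2, was at -1.66 after POU2AF1 knockdown in OCI-Ly7 (edgeR adjusted p = 0.0043). Its level there was low, at 4.73 to 7.46 CPM in controls and 0.609 to 3.52 after POU2AF1 knockdown. After POU2F2 knockdown in OCI-Ly7 it was at -1.02 and did not pass. In SUDHL4, where 1 control and 1 POU2AF1 knockdown library were compared, it was at -1.71. In the fit of all libraries the SUDHL4 value was -1.73 and did not pass (adjusted p = 0.14). It was examined after its values were seen. FAR2P2 lies at 130416755 to 130431363 on the minus strand of chromosome 2.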
